A study of Rattus norvegicus with 16 samples.

Results

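The cytosolic ribosomal protein genes were followed in the lungs and the adipose tissue of rats given house dust mite (HDM), an airborne allergen. A gene was taken as a member when the RefSeq transcript of a probe on the array belonged to a symbol that starts with Rpl or Rps and goes on with a number, with the stalk genes Rplp0, Rplp1 and Rplp2 included and the ribosomal S6 kinases and mitochondrial ribosomal proteins left out. This rule used names only and no measured value. It found 87 of the 16678 gene symbols on the array, with 203 of its 45598 probes. Of a list of 76 standard subunits that the pattern can name, 75 were measured, 45 of the large (60S) and 30 of the small (40S) subunit, and Rpl37 was the gene without a probe of its own name. The other 12 symbols were Rpl17l5, Rpl22l1, Rpl27l2, Rpl37l1, Rpl39l1, Rpl39l5, Rpl3l, Rplp1l1, Rps12l4, Rps19l3, Rps27l and Rps4y2, most of them named as relatives of a standard subunit.

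The samples came from 8 male Brown Norway rats, whose age was given as 7 weeks, and the age at tissue collection after the dosing was not stated. In 5 of them (HDM rats), 45 µg of HDM with the adjuvant Al(OH)3 was given under the skin 1 time a week for 3 weeks, and 120 µg of HDM was then given into the nose 3 times a week for 3 weeks. The other 3 (control rats) received saline in the same adjuvant under the skin and saline into the nose, so both groups carried the adjuvant. Lung and adipose tissue of each rat were hybridized to 1 array each, 16 arrays in all, on a 1-color Agilent design with 50 ng of RNA per sample. Values are log2 signals relative to the 75th percentile of the same array, so a difference of 1 is a 2-fold difference. The brightest probe of each gene in a tissue was used, and the levels of different probes were not set against each other.

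The ribosome translates messenger RNA into protein, and each of its subunits is a complex of ribosomal RNA with many small proteins. The messenger RNAs of these proteins are among the most abundant of most cells, and in mammals many of them begin with a 5′ terminal oligopyrimidine (TOP) tract, a C followed by a run of C and T letters, through which the mTOR pathway controls their translation. Because their messages are long-lived and their control is largely translational, their transcript levels are often taken as steady, and several of them are used as reference genes. Processed copies of these genes are common in mammalian genomes. In the gene table used here 234 symbols fit the same pattern, and how far a probe also bound the transcripts of such copies was not tested.

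The starts of the genes are shown for members named in the results, because a TOP tract at the start is the sequence feature the family is known for. Each line gives 10 bases before and 20 bases from the annotated start, 5′ to 3′ on the strand of the gene, from RefSeq (GRCr8). Capitals mark a run of at least 5 letters that opens with C and holds only C and T, within 5 bases of the start.
Rplp1: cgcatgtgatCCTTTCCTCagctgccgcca (chr8:71290853-71290882, minus strand)
Rplp0: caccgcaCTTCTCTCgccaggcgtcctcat (chr12:46718371-46718400, minus strand)
Rpl10: gtgggagcgtCTCTTTTCCTCTggcgcggt (chrX:157205840-157205869, plus strand)
Rpl31: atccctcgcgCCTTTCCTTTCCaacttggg (chr9:49143101-49143130, plus strand)
Rps13: ttcctacctcgttCTCTCTTTgcttccaga (chr1:180009641-180009670, minus strand)
Rpl36a: tataaaCTTCCgttgctgctctagcctctc (chrX:102059439-102059468, plus strand)
Rpl22l1: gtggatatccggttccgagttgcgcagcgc (chr2:113683186-113683215, plus strand)
Rps27l: ttcatttgtcattatttgtggtgtccagag (chr8:76443648-76443677, plus strand)
Rps12l4: ggcacagaatgctggcgcagggtgcagcgt (chr7:25007010-25007039, minus strand)

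A window was given for 70 of the 87 genes. In 23 of them (32.9%) the annotated start itself was a C followed by at least 4 letters that were C or T, read on the strand of the gene only. Over all 27457 windows of the table this share was 2.63%, and over the 13642 windows of genes on the array it was 2.35%. All 23 were among the 60 standard subunits with a window, and none was among the 10 windows of the other symbols, to which Rpl22l1, Rps27l and Rps12l4 belong. With the run allowed within 5 bases of the start, 41 of 70 members held it (58.6%), compared with 17.0% of all windows. The starts of the mitochondrial ribosomal protein genes, which form a separate ribosome, were on a tract in 3.64% of 55 windows. These letters describe the annotated starts, and their use as a start in these tissues was not measured.

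The probes were bright. In each tissue 81 of the 87 genes were well above background on all 8 arrays, and no spot was saturated. Of the other 6, Rpl15, Rpl19 and Rps15 in lung and Rpl17, Rpl9 and Rps3 in adipose tissue lacked the value of 1 array, where the spot was an outlier, and were fitted on 7 arrays. Rpl27l2, Rpl39l1 and Rpl3l were dim in both tissues. Rpl3l, a relative of Rpl3 known from striated muscle, was above background on 7 arrays in each tissue.

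The tissue labels were checked against markers. All 7 adipocyte genes were well above background on every adipose array, and all 7 lung epithelium genes on every lung array. In adipose tissue the log2 of the summed level of 7 epididymis genes was 11.98 in HDM rat 1 and 12.37 in control rat 1, compared with −2.15 to 4.84 in the other 6 rats, so the count and median of the adipose change, and of the difference between the tissues, are also given without these rats. All 8 arrays of a tissue lay on a single slide, with HDM rats 1 to 4 in row 1 and HDM rat 5 and the control rats in row 2. The 75th percentile of the adipose signal was between 111 and 227 in control rats and between 168 and 240 in HDM rats, and in lung it was between 376 and 488. The adipose array of HDM rat 2 had 1224 outlier spots, against 355 to 444 on the others.

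In lung, none of the 87 ribosomal protein genes passed the test of HDM rats against control rats. The threshold was an adjusted p below 0.05 and a fold change above 1.5 with limma, with adjustment over all probes, and 0.855% of all probes passed it. Without adjustment 1 of the 87 genes had a p below 0.05 with limma, compared with 10.2% of all probes. The methods' t-test also called 0 members, and 341 of all 45598 probes. The median log2 fold change of the members was −0.01, against 0.00 for all probes, with 35 genes higher and 52 lower in HDM rats (49.3% of all probes were lower). A difference above 1.5-fold, with no test, was seen in 2 of the 87 genes and 9.47% of all probes, and both genes, Rpl39l1 (−1.09) and Rpl27l2 (−0.72), were dim. In this bulk tissue, fewer cells of a type and less RNA per cell cannot be told apart.

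The intervals were narrow for most members. The 95% confidence interval of the change lay within 1.5-fold in either direction for 80 of the 87 genes, compared with 43.8% of all probes and 62.5% of the 26551 probes well above background on all arrays. The standard error of the members' change had a median of 0.15 log2 units. The 45 subunits of the large subunit had changes between −0.14 and 0.04 (median −0.03, 11 higher and 34 lower). The 30 of the small subunit had changes between −0.10 and 0.06 (median 0.01, 18 higher and 12 lower).

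**Figure D1:**
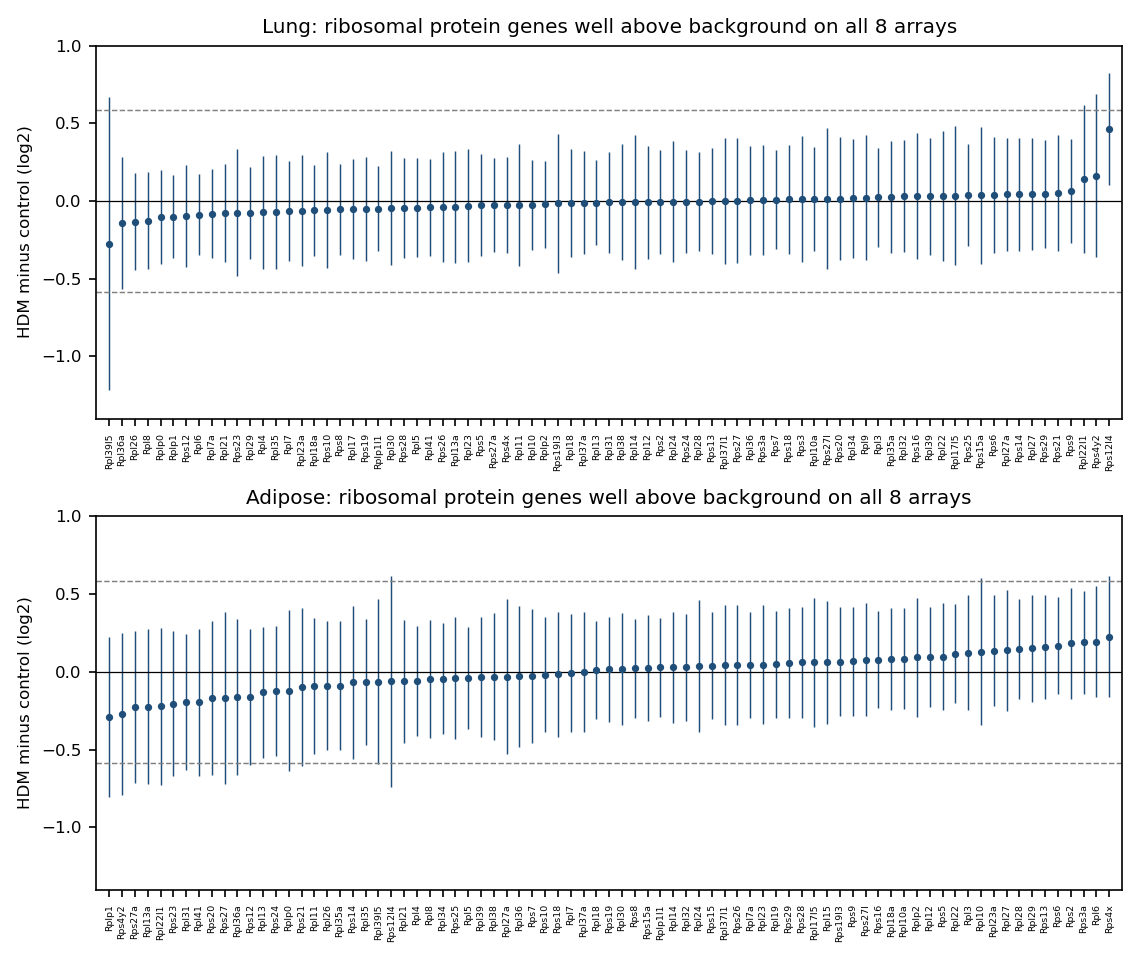
Change between HDM rats and control rats (log2, HDM minus control) of 79 of the 81 ribosomal protein genes well above background on all 8 arrays of a tissue, in order of the change, in lung (top) and adipose tissue (bottom). Points are limma estimates, bars are 95% confidence intervals and dashed lines mark 1.5-fold. In lung the interval of Rps12l4 alone lies off 0, and in adipose tissue every interval holds 0.

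The gene with the largest increase in lung was Rps12l4, a relative of Rps12. Its log2 level was −2.40, −2.75, −2.43, −3.00 and −2.74 in HDM rats 1 to 5 and −3.09, −3.18 and −3.11 in control rats 1 to 3. Every HDM rat lay above every control rat, the lowest by a small margin, and Rps12l4 was the member without overlap between the groups in lung (9.66% of all probes did not overlap, and 4.66% were higher in HDM). The change was 0.46 with a standard error of 0.16, and the adjusted p was 0.321 with limma, so it was not differentially expressed. Its signal was dim, with a mean of 58.5 before scaling, and the change under the alternatives was between 0.16 and 0.61. The second probe of the gene was dimmer, with a mean signal of 17.2 and 6 of 8 arrays above background, and its change was 0.75 (standard error 0.26, adjusted p = 0.334 with limma).

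At the low end of the 81 genes well above background on all lung arrays stood Rpl39l5 (−0.28 ± 0.41, SE), Rpl36a, Rpl26, Rpl8 and the stalk genes Rplp0 and Rplp1. Rpl39l5 was dim, and its interval from −1.22 to 0.67 was the widest among the 81 genes well above background. Rpl36a had log2 levels of 6.66, 6.62, 7.13, 6.30 and 6.50 in HDM rats and 6.82, 6.86 and 6.66 in control rats. The groups overlapped, with the highest and the lowest value both in HDM rats, and the change was −0.14 (SE 0.18, adjusted p = 0.936 with limma). The 3 bright probes of Rpl36a gave changes of −0.05, 0.23 and −0.14.

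The ribosomal stalk is formed by Rplp0 with Rplp1 and Rplp2 and recruits the elongation factors. In lung, the level of Rplp0 was 8.06 ± 0.18 in the 5 HDM animals (SD) and 8.17 ± 0.11 in the 3 control animals. Rplp1 was 8.12 ± 0.13 and 8.22 ± 0.11 in the same groups, and Rplp2 was 8.31 ± 0.15 and 8.33 ± 0.09. All 3 differences were smaller than the spread between rats, with changes of −0.11, −0.10 and −0.02.

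Several members have roles outside the ribosome. Rpl5 and Rpl11, which bind Mdm2 when ribosome assembly is disturbed, changed by −0.04 (SE 0.14) and −0.03 (SE 0.17) in lung. Rps6, the target of the S6 kinases, differed by 0.04 (SE 0.16), and Rps19, mutated in Diamond-Blackfan anemia, by −0.05 (SE 0.14). Rpl13a, part of a complex that silences inflammatory messages, differed by −0.04 (SE 0.16). Rps27a, made as a fusion with ubiquitin, differed by −0.03 (SE 0.13). None of these 6 genes passed the test.

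At the high end, after Rps12l4, were Rps4y2 (0.16, SE 0.23), Rpl22l1 (0.14, SE 0.21) and Rps9 (0.06, SE 0.14). In HDM rats the log2 level of Rpl22l1 was 4.08, 4.02, 4.67, 3.72 and 3.93, and in control rats it was 3.96, 4.03 and 3.83. HDM rat 3 was the highest and HDM rat 4 the lowest. This order recurred across the family.

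HDM rat 3 had the highest lung level at 80 of the 84 members with a value on all 8 arrays, and HDM rat 4 had the lowest at 72 of the 84. Over all probes these shares were 33.1% and 19.9%. The median log2 level of the 87 genes was 7.40, 7.28, 7.73, 7.06 and 7.20 in HDM rats 1 to 5 and 7.35, 7.31 and 7.33 in control rats 1 to 3. The controls lay close together, and the HDM rats lay on both sides of them. The standard deviation of a member between rats had a median of 0.24 in HDM rats and 0.07 in control rats, and over all probes the medians were 0.29 and 0.18.

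**Figure D2:**
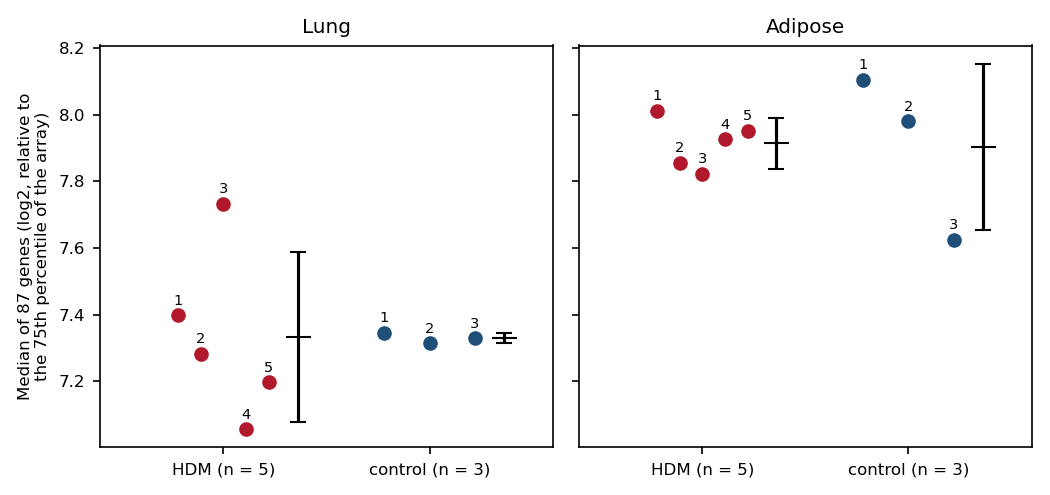
Median log2 level of the 87 ribosomal protein genes on each array, scaled to the 75th percentile, for HDM rats (red) and control rats (blue), with rat numbers; the bars beside the points are the mean and SD of the rats. In lung HDM rat 3 is the highest at 7.73 and HDM rat 4 the lowest at 7.06, and in adipose tissue control rat 1 is the highest at 8.11 and control rat 3 the lowest at 7.62.

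The direction of the median in lung therefore rested on single rats. Without HDM rat 3 it was −0.10, with 84 of 87 genes lower, and without HDM rat 4 it was 0.05, with 62 genes higher. The order also depended on the scaling. HDM rat 3 was the highest at 70 of the 84 genes without scaling, at 60 with scaling to Gapdh and Hprt1 and at 9 with scaling to the spike-in probes. HDM rat 4 was the lowest at 38, 60 and 5 genes under the same settings. The log2 of the summed level of 5 neutrophil genes ranged from 6.94 to 8.07 in HDM rats, highest in HDM rat 3, and from 2.99 to 3.32 in control rats. In HDM rat 4 it was 7.20, the median of the HDM rats. All 5 neutrophil genes were called higher in HDM rats, and their part in the order of the ribosomal protein genes was not tested.

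**Figure D3:**
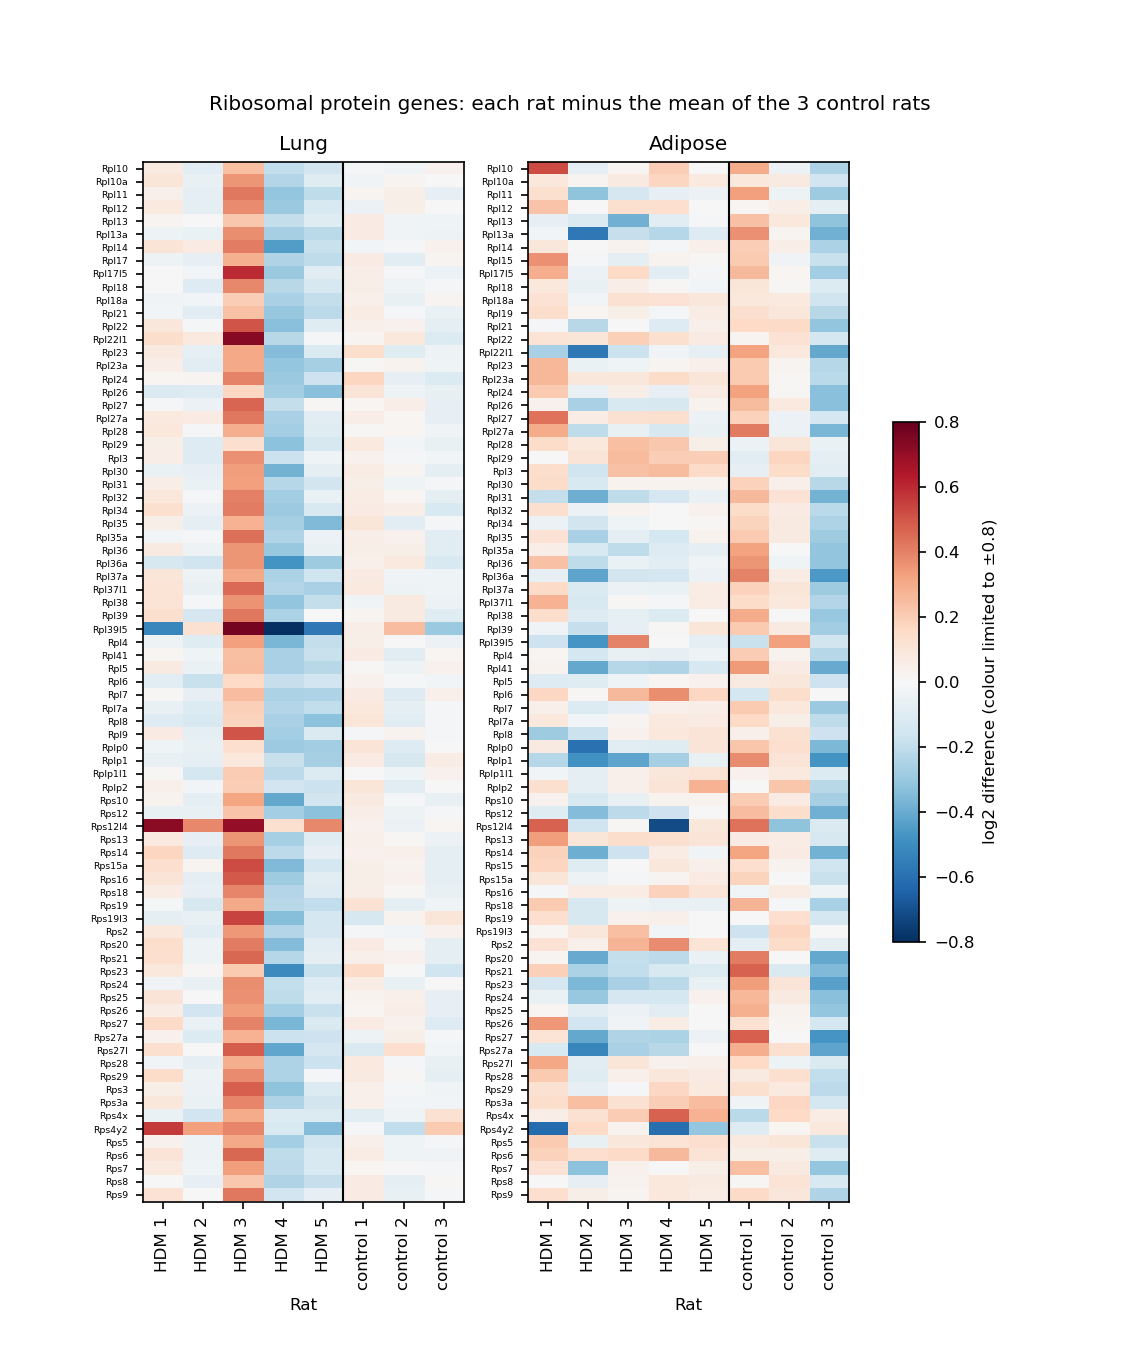
Log2 level of each ribosomal protein gene well above background on all 8 arrays (79 of 81 per tissue, rows) in each rat (columns), minus the mean of the 3 control rats; red is higher and blue is lower. Over all 87 genes, lung HDM rats 1 to 5 lay above the control mean at 61, 9, 85, 1 and 3 genes, and in adipose tissue control rats 1 to 3 lay above it at 73, 72 and 4 genes.

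In adipose tissue, again none of the 87 genes was differentially expressed, where 0% of all probes passed the threshold. No member had an unadjusted p below 0.05 with limma, compared with 9.9% of all probes. After adjustment the methods' t-test called 0 members and 0 of all probes. Without adjustment the t-test gave 3 members, and its share over all probes is not given. The median log2 fold change was 0.01, with 44 genes higher and 43 lower in HDM rats (64.2% of all probes were lower). A difference above 1.5-fold, with no test, was seen in 1 of the 87 genes, the dim Rpl39l1 (−0.92), and in 24% of all probes. The 95% interval lay within 1.5-fold for 65 of the 87 genes, compared with 16.4% of all probes. The genes of the large subunit changed by −0.29 to 0.19 (median −0.01) and those of the small subunit by −0.22 to 0.23 (median 0.02).

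In 3 members every HDM rat was higher than every control rat, among them Rps6 and Rps13 of the small subunit. Over all probes 6.26% did not overlap, with 1.54% higher and 4.73% lower in HDM rats. Rps6 was 7.32, 7.26, 7.29, 7.39 and 7.24 in HDM rats and 7.18, 7.18 and 7.03 in control rats. Rps13 was 7.32, 7.08, 7.13, 7.12 and 7.09 against 7.06, 7.05 and 6.86. In both genes the lowest HDM rat lay just above the highest control rat. The changes were 0.17 (SE 0.14) for Rps6 and 0.16 (SE 0.14) for Rps13, with adjusted p-values of 0.754 and 0.787 from limma. The changes of Rps4x (0.23), Rpl6 (0.19), Rps3a (0.19) and Rps2 (0.18) were also at the high end of the genes well above background on all arrays, and in these 4 genes the groups overlapped. The dim Rpl3l was higher, with 0.49 (SE 0.47).

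Among the 81 genes well above background on all adipose arrays, the lowest change was that of Rplp1, with −0.29 (SE 0.22, adjusted p = 0.737 with limma). Its log2 level was 9.26, 9.01, 9.07, 9.22 and 9.43 in HDM rats and 9.87, 9.59 and 9.01 in control rats. Control rats 1 and 2 lay above all HDM rats, and control rat 3 lay near the lowest of them. Its stalk partners Rplp0 and Rplp2 changed by −0.12 (SE 0.22) and 0.09 (SE 0.17). Rps4y2 (−0.27), Rps27a (−0.22), Rpl13a (−0.22), Rpl22l1 (−0.22) and Rps23 (−0.20) stood next to Rplp1. Rpl5 (−0.04), Rpl11 (−0.09) and Rps19 (0.02) lay closer to 0.

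Control rat 1 was the highest at 44 of 84 members and control rat 3 the lowest at 59 of 84, against 35.1% and 11.2% of all probes. This order also depended on the scaling. Without scaling, control rat 1 was the lowest at 72 of the 84 members and control rat 3 at 0. They were the lowest at 48 and 0 with scaling to the spike-in probes, and at 39 and 37 with the array median. With Gapdh and Hprt1, control rat 1 stayed the highest at 39 members and control rat 3 the lowest at 55. The median level of the members was 8.11, 7.98 and 7.62 in control rats 1 to 3 and between 7.82 and 8.01 in HDM rats. Here the spread was larger in control rats (median SD 0.22) than in HDM rats (0.12), the opposite of lung. Over all adipose probes the medians were 0.43 in control rats and 0.36 in HDM rats, the same direction. Without control rat 3 the median change was −0.12, with 64 genes lower, and without control rat 1 it was 0.10, with 72 higher. Without HDM rat 1 and control rat 1, whose arrays had the highest epididymis levels, it was 0.07, with 0 members and 0 of all probes called. Control rat 3, with the next highest summed level of these genes (4.84), stayed in.

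Relatives of a standard subunit can be set beside it by their changes. Rps27l, a target of p53, changed by 0.01 (SE 0.20) in lung and 0.08 (SE 0.16) in adipose tissue, where Rps27 changed by 0.00 (SE 0.17) and −0.17 (SE 0.24). Rpl22l1 changed by 0.14 in lung and −0.22 in adipose tissue, and Rpl22 by 0.03 and 0.12. Rpl3 changed by 0.02 and 0.12. For Rpl7, Rpl10 and Rpl39 the lung changes ranged from −0.06 to 0.03, and those of adipose tissue from −0.03 to 0.13. No relative and no standard partner passed the test in either tissue.

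The probes of a gene were also compared with each other. Among 52 genes with more than 1 probe well above background on all arrays, the probes agreed in sign for 26 in lung and 39 in adipose tissue. Their changes lay within 0.2 log2 units of each other for 50 in lung and for 48 in adipose tissue, a limit wider than most of the changes themselves. The widest spread was 0.37, for Rpl36a in lung, and 0.30, for Rplp2 in adipose tissue. When all probes of a symbol were averaged, the medians were −0.01 in lung and 0.03 in adipose tissue.

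Members with and without a tract near the start were also set side by side. In lung the 41 genes with a tract had a median change of −0.01 and the 29 with a window but no tract had −0.02. In adipose tissue the medians were −0.03 and 0.02. The difference between these groups of genes was not tested.

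The scaling of the arrays set the direction of the whole family. In lung the median change of the members was between −0.12, with scaling to Gapdh and Hprt1 (84 of 87 lower), and 0.07, without scaling (75 of 87 higher). The median of all probes moved with it, from −0.11 to 0.08. In adipose tissue the median of the members was 0.31 with scaling to the array median, 0.36 without scaling and 0.36 with scaling to the spike-in probes, and 86 of 87 genes were higher in HDM rats under each of these. It was −0.05 with the 75th percentile taken over probes well above background and −0.02 with Gapdh and Hprt1. No member was called in either tissue under any of these scalings. Gapdh and Hprt1 themselves changed by 0.09 (SE 0.12) and −0.05 (SE 0.14) in lung and by −0.14 (SE 0.16) and 0.04 (SE 0.18) in adipose tissue.

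**Figure D4:**
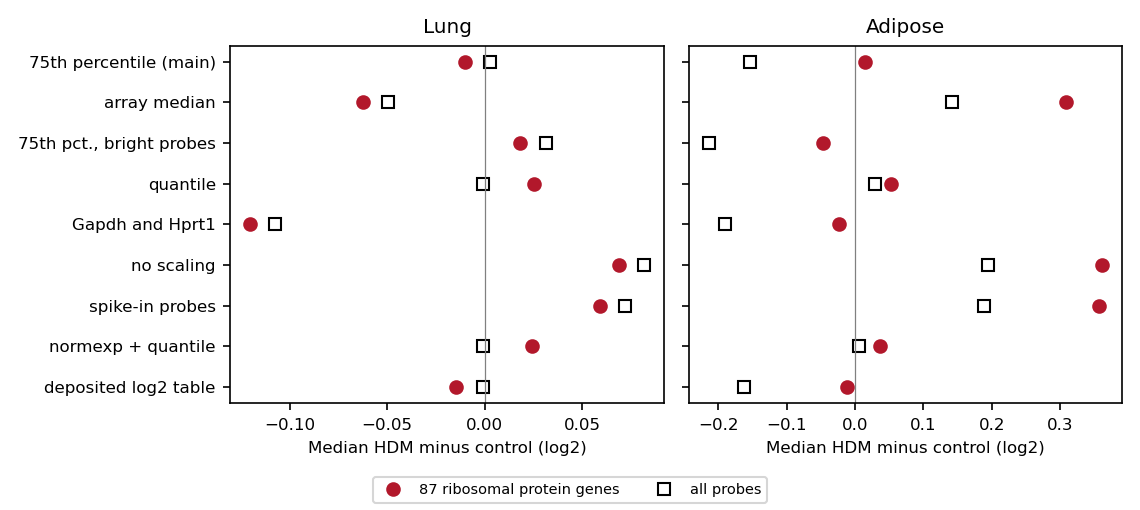
Median change between HDM rats and control rats (log2) of the 87 ribosomal protein genes (filled circles) and of all probes (open squares) under 9 ways of scaling the arrays, in lung (left) and adipose tissue (right; the axes differ in range). In adipose tissue the members go from −0.05 to 0.36 and lie above all probes under every scaling shown, and in lung they stay close to all probes.

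With the 75th percentile as the scale, the median of all adipose probes was −0.15, below the 0.01 of the members. The 13574 adipose probes that never rose well above background had a median change of −0.23, and 11811 of them were lower in HDM rats. The 20377 probes well above background on all 8 arrays had a median of 0.03, close to the 0.02 of the 81 bright members. In lung the dim probes had a median of 0.01. Quantile normalization brought the adipose medians of the members and of all probes to 0.05 and 0.03.

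Whether the effect of HDM on the members depended on the tissue was tested on the differences within rats. No member differed between the tissues after adjustment with limma, where 0.00219% of all probes did, and none had an unadjusted p below 0.05, compared with 7.74% of all probes. The median difference (lung change minus adipose change) was −0.04. It was −0.39 with the array median (84 of 87 genes below 0), −0.31 without scaling, −0.31 with spike-in probes and 0.06 with the 75th percentile over bright probes (63 of 87 genes above 0). Without HDM rat 1 and control rat 1 it was −0.076, with 0 members and 0 of all probes called. The smallest adjusted p of a member was 0.66 with limma.

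The other genes of the ribosome and its control were read from fixed lists. Rpsa, Fau and Rack1, ribosomal proteins that the name pattern leaves out, had changes of −0.05 to 0.02 in lung and of −0.11 to 0.24 in adipose tissue, and none was called. Rack1, a scaffold of the small subunit, was higher in every HDM rat than in every control rat in adipose tissue, as were 1.54% of all probes. Its change was 0.24 (SE 0.16). Of 14 translation factors and other genes whose messages are known to carry TOP tracts, 0 were called in either tissue. Their median change was −0.07 in lung, with 10 of 14 lower, and 0.15 in adipose tissue, with 14 of 14 higher. The largest change in the list was that of Nap1l1, a nucleosome assembly protein, with 0.50 (SE 0.24, adjusted p = 0.547 with limma) in adipose tissue.

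Of 68 mitochondrial ribosomal protein genes, 0 were called in either tissue. Their median change was 0.03 in lung (42 higher, 26 lower) and 0.09 in adipose tissue (54 higher, 14 lower), and 7 of them were higher in every HDM rat than in every control rat in adipose tissue, as were 1.54% of all probes. Of 24 measured genes of ribosome biogenesis, 0 were called, with medians of −0.10 in lung and 0.01 in adipose tissue. In lung 5 of these, Bysl, Fbl, Nop2, Pes1 and Ubtf, were lower in every HDM rat than in every control rat, as were 5% of all probes. Bysl, needed for assembly of the small subunit, was −0.38, −0.10, −0.12, −0.10 and −0.07 in HDM rats and 0.31, 0.30 and 0.31 in control rats. The change was −0.46 (SE 0.11, adjusted p = 0.121 with limma).

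Of 11 genes of the mTOR and S6 kinase pathway, 0 were called in either tissue. Ddit4, a stress-induced inhibitor of mTOR complex 1 that glucocorticoids also induce, had the largest change in both. In lung it was 1.78, 1.66, 3.20, 2.57 and 2.14 in HDM rats and 3.51, 3.41 and 3.77 in control rats, a change of −1.30 (SE 0.34, adjusted p = 0.181 with limma). The groups did not overlap. In adipose tissue the change was −1.47 (SE 0.67, adjusted p = 0.527 with limma). Tsc1, a further brake on mTOR, differed by −0.25 (SE 0.09) in lung without overlap and by 0.26 (SE 0.18) in adipose tissue. These 2 of the 11 genes were lower in every HDM rat than in every control rat in lung, as were 5% of all probes.

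The same rats gave a comparison of adipose tissue with lung over all 8 animals, in which tissue and slide cannot be told apart. With the 75th percentile as the scale, 39 of the 87 genes were called, all higher in adipose tissue, where 54.3% of all probes were called, 39.4% higher and 14.9% lower. The median difference was 0.55 log2 units for the members and 0.50 for all probes. At 63 of the 87 genes the adipose level was higher in every rat with a value in both tissues. This was not counted over all probes, whose median difference was near that of the members. The called genes were 22 of the large subunit, 12 of the small subunit and 5 others, Rpl22l1, Rpl39l5, Rplp1l1, Rps12l4 and Rps19l3. Without HDM rat 1 and control rat 1, 35 members and 21518 of all probes were called, and the median of the members was 0.50.

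The members did not share a single difference. Rpl36a had the largest, with 1.28 (SE 0.14, adjusted p = 0.000124 with limma). Its adipose log2 levels were between 7.62 and 8.48 and its lung levels between 6.30 and 7.13, without overlap. Rplp1 (1.18), Rps23 (1.09), Rpl41 (1.06) and Rplp2 (1.00) followed, each with a standard error between 0.11 and 0.14 and higher in adipose tissue in 8 of 8 rats. Rpl22l1 (0.99), Rps20 (0.92), Rps12 (0.92), Rpl26 (0.91), Rps14 (0.90), Rps27a (0.89), Rpl39l5 (0.84), Rpl31 (0.81) and Rpl17 (0.80) were also among the 15 largest. At the other end Rpl6 was −0.22 (SE 0.10, adjusted p = 0.0841 with limma), and Rps4y2, Rps4x, Rps2 and Rps26 lay between −0.19 and −0.03. For Rps2 the lung levels went from 5.93 to 6.51 and the adipose levels from 5.92 to 6.37, and the ranges overlapped.

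The direction depended on the scaling. Without scaling, 59 genes were called lower in adipose tissue and 0 higher (median −0.72). With scaling to the spike-in probes 79 were called lower (median −1.01). All probes moved alike, to −0.78 and −1.06, and 25877 and 30186 of all 45598 probes were called in either direction. With quantile normalization over all 16 arrays the median was −0.10 for the members and 0.10 for all probes. Under it 4 members were called higher and 2 lower, and 15430 of all probes were called in either direction. The 6 called members were Rpl22l1, Rpl36a, Rpl39l5, Rpl6, Rps12l4 and Rps26, with Rpl36a higher by 0.67 in adipose tissue.

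**Figure D5:**
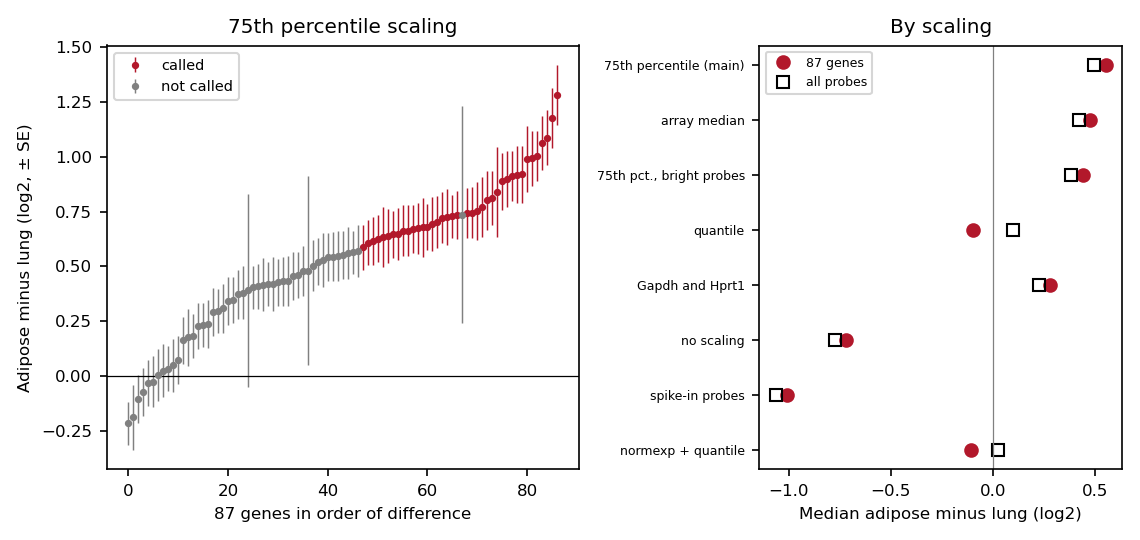
Left, difference between adipose tissue and lung of the same rats (log2, limma estimate ± SE) of the 87 ribosomal protein genes in order of size, with called genes in red. Right, median difference of the members (filled circles) and of all probes (open squares) under 8 scalings; the median of the members goes from −1.01 with spike-in probes to 0.55 with the 75th percentile.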

How the data were processed

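The authors deposited, for each array, the background-subtracted spot intensity from Agilent Feature Extraction 12.0.3.1, and a table of log2 values made in GeneSpring GX. In 99.91% of cells the deposited log2 values differed by under 0.1 from intensities scaled to the 75th percentile and centered per tissue, and 39 cells were not numeric. From the intensities, control probes and outlier spots were left out, spots of a probe were averaged and each array was scaled to its 75th percentile. HDM and control rats were compared per tissue with limma 3.58.1 in R 4.3.3, with Benjamini–Hochberg adjustment over 45598 probes. Tissues were compared on differences within rats. The methods' t-test was an alternative. Scripts were tested on simulated data, and figures used matplotlib 3.10.9. The members and lists were chosen with earlier results of these data known. The genes named were those called, the 6 highest and 6 lowest changes per tissue among members well above background on all arrays, the 15 largest tissue differences and a list of members with known roles or relatives. Genes of other lists are named beside their list, and Bysl, Fbl, Nop2, Pes1, Ubtf, Nap1l1, Tsc1 and Ddit4 were chosen after their values were seen, as were Rps13, Rps26, Rpl39l1 and Rpl27l2. The p-values measure the spread between rats, and the number of arrays limits the precision. Some genes that these rules name are not reported here.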

Additional observations from a re-analysis of the deposited data

Results flagged for a closer look

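In groups of 5 HDM rats, 54 sets of values were examined for a rat far from the others, and chance flags about 1 in 20. Both flagged values were those of HDM rat 2 in adipose tissue. Rpl3 was 7.20 there, and the 4 other values ranged from 7.50 to 7.62. Rplp0 was 8.35, compared with 8.85 to 9.05. The array of this rat had the most outlier spots of the adipose arrays (1224). The part of these spots in the values was not tested.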

How the results depend on the processing

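The count of called members stayed at 0 in lung and in adipose tissue, and for the difference between their changes, under every alternative run. The median change in lung was between −0.13, with slide row as a term, and 0.11, with the replicate block. With each rat left out it was between −0.10 and 0.05. In adipose tissue it was 0.31 with the array median, 0.36 without scaling and 0.36 with spike-in probes, and with each rat left out it was between −0.12 and 0.10. In the lists of other ribosome and mTOR genes, 0 were called, except 1 lung gene, Ddit4. It was called with array weights and with adjustment only over probes past 1.5-fold. Of all lung probes 705 and 1329 were called under these settings, against 390 in the main test. The latter setting adjusts only over probes picked by their change in the same data, which loosens the adjustment.

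The replicate numbers were not taken as pairs of rats in the main test. The correlations of same-numbered deviations were −0.06, −0.08 and 0.05 for lung. For adipose tissue they were 0.59, 0.14 and 0.10. The 0.59 was that of the rats numbered 1, both of which carried the epididymis genes, and its cause was not tested. With the replicate block, 0 members and 0 of all 45598 probes were called in each tissue. The median of the members was 0.11 in lung and 0.01 in adipose tissue. With slide row as a term, the lung median was −0.13 with 84 genes lower. HDM rat 5 was the only HDM rat in the row of the control rats, so this value rested on that rat alone.

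The count of members called between adipose tissue and lung was 39, where 24753 of all 45598 probes were called in either direction. It was 24 with the 75th percentile over bright probes (all probes 23388) and 12 with Gapdh and Hprt1 (all probes 22550). It was 6 with quantile normalization (all probes 15430) and 4 with normexp and quantile normalization (all probes 8212). Without a fold threshold it was 67 (all probes 29113). It was 59 without scaling (all probes 25877) and 79 with spike-in probes (all probes 30186), with all of these members lower in adipose tissue. With each rat left out it was between 36 and 47 (all probes between 21743 and 25825). The median difference became −0.10 with quantile normalization, −0.11 with normexp, −0.72 without scaling and −1.01 with spike-in probes, and with each rat left out it was between 0.51 and 0.60.

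Among the 15 largest tissue differences, the signs turned as follows. Without scaling the values were −0.10 for Rplp1, −0.19 for Rps23, −0.21 for Rpl41, −0.27 for Rplp2, −0.28 for Rpl22l1, −0.35 for Rps20, −0.36 for Rps12, −0.36 for Rpl26, −0.37 for Rps14, −0.39 for Rps27a, −0.43 for Rpl39l5, −0.46 for Rpl31 and −0.51 for Rpl17. With spike-in probes they were −0.28 for Rpl36a, −0.38 for Rplp1, −0.47 for Rps23, −0.50 for Rpl41, −0.56 for Rplp2, −0.57 for Rpl22l1, −0.64 for Rps20, −0.64 for Rps12, −0.65 for Rpl26, −0.66 for Rps14, −0.67 for Rps27a, −0.72 for Rpl39l5, −0.75 for Rpl31 and −0.80 for Rpl17. With normexp Rpl41 was −0.034. The cause was not tested. Signal over background limits Rps12l4, Rpl39l5 and the 3 dim members most.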
